A study of Homo sapiens with 9 samples.

Results

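The replication-dependent histone genes encode the proteins that package newly made DNA. They were taken here as every gene whose symbol starts with HIST1H, HIST2H, HIST3H or HIST4H, which gave 57 of the 20637 genes measured. The cells were HL-60, an established human line of acute promyelocytic character that grows in suspension. By symbol, 5 of the 57 genes belong to the linker histone class H1. Another 15, 17, 9 and 11 belong to the core histone classes H2A, H2B, H3 and H4. Some of the 57 are pseudogenes, which encode no histone, and they are counted in these classes and in all shares of the 57. In the largest locus, on chromosome 6, lie 45 of the 57 genes (HIST1). By symbol, 9 belong to HIST2 and 2 to HIST3, both on chromosome 1, and 1 to HIST4 on chromosome 12. HIST2 and HIST3 lie in different stretches, and not all of the HIST2 genes lie together. The cells were compared in 3 groups of 3 biological replicates each. Parental HL-60 cells were grown without drug, as far as the labels say. HRA cells resist cytarabine (Ara-C, a nucleoside analogue that blocks DNA synthesis), and their medium held 100 nM of this drug. HRD cells resist daunorubicin (DNR, an anthracycline that acts on DNA and topoisomerase II), and theirs held 30 nM. All 3 groups shared the same medium and were used within 10 passages. The labels name 1 resistant population per drug, so the replicates cover the spread within it, and resistance and the drug in the medium cannot be told apart.

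Most histone messages differ from all other messages of the cell. They are made while DNA is copied, and they end in a short RNA hairpin, the histone stem-loop, in place of a poly(A) tail. Stem-loop binding protein and the U7 small nuclear RNA direct the cut just after the hairpin, and the messages are degraded quickly once DNA synthesis stops. Some of these genes also have a poly(A) signal further downstream, and polyadenylated transcripts of several of them are known from differentiated cells. The libraries measured here hold polyadenylated RNA. They are therefore meant to report the minor, polyadenylated output of these genes, but whether the counted histone transcripts carried a poly(A) tail was not tested. A change in total histone message cannot be told apart from a change in the polyadenylated share of it. Since whole cell populations were measured, fewer cells making a message and less message per cell cannot be told apart either.

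The hairpin was located in the annotated transcripts to see which of the genes also have an annotated stretch beyond it. The pattern searched, on the transcript strand of GENCODE 29 (GRCh38), starts with GG and ends with CC, has T as the last base of the left arm and A as the first of the right arm, pairs 6 bases in the stem and has a loop of 4. It was found in 22 of the 57 histone genes and in 442 of the 19669 protein-coding genes of the release (2.25%). The hairpins of 4 genes that passed the test in a comparison and of 2 H4 genes that passed in none are shown with 7 bases on either side, the hairpin in capitals. The genes differ in what the annotation places after the hairpin.
HIST1H2AC: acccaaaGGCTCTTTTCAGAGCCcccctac
HIST1H2BC: ccccaaaGGCTCTTTTAAGAGCCacccaga
HIST1H2BD: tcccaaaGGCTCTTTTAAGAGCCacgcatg
HIST2H2BE: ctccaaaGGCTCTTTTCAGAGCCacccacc
HIST1H4E: aatcaaaGGCCCTTTTCAGGGCCgcccaca
HIST1H4H: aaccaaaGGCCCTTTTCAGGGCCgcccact
In GRCh38 these exonic windows lie at chr6:26124662-26124691 on the plus strand, chr6:26123465-26123494 on the minus strand, chr6:26158580-26158609 on the plus strand, chr1:149886181-149886210 on the minus strand, chr6:26204994-26205023 on the plus strand and chr6:26285124-26285153 on the minus strand. In the transcripts used for these windows, 1729 bases follow the hairpin of HIST2H2BE, 1114 that of HIST1H2AC, 1655 that of HIST1H4H and 1022 that of HIST1H4E. The hairpin of HIST1H2BC is followed by 116 bases and that of HIST1H2BD by 39, with a second, longer HIST1H2BD transcript that lacks the hairpin. A poly(A) signal, AATAAA or ATTAAA, lay within the last 40 bases of an annotated transcript in 17 of the 57 histone genes, against 15885 of the 19669 protein-coding genes (80.8%). The models of 23 histone genes hold only the coding sequence and could show neither feature.

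Histone reads were few. The 57 genes together had 11560 reads in the 9 libraries, between 0.00227% and 0.00597% of the reads of a library. Library totals ran from 20822709 to 66563328 reads, so 3 reads in a library correspond to a value of 1.49 to 4.52. Values are read counts scaled by library depth. They are not scaled by gene length, so they are compared between groups and not between genes. HIST1H2BK, an H2B gene, held 37.0% of the histone reads and HIST1H1C, an H1 gene, 18.8%. Reads were present in every library for 30 genes, and 13 genes had at most 10 reads in all 9 libraries. Testing required 3 or more libraries with a value of 10 or more, which 23 genes met: 1 of H1, 7 of H2A, 10 of H2B, 1 of H3 and 4 of H4. Of these, 2 met it only because of the parental libraries, 1 because of the HRA and 2 because of the HRD libraries. Another 13 met it whichever single group was left out. The rest of the 23 failed it without either of at least 2 groups, so they needed libraries of more than 1 group. The remaining 34 genes had 1 to 94 reads each in all libraries together, with a median of 20. The summed value of these 34 averaged 95.9 ± 23.7 in parental, 78.9 ± 35.6 in HRA and 100.2 ± 20.6 in HRD cells (SD, n = 3), with overlapping libraries.

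**Figure D1:**
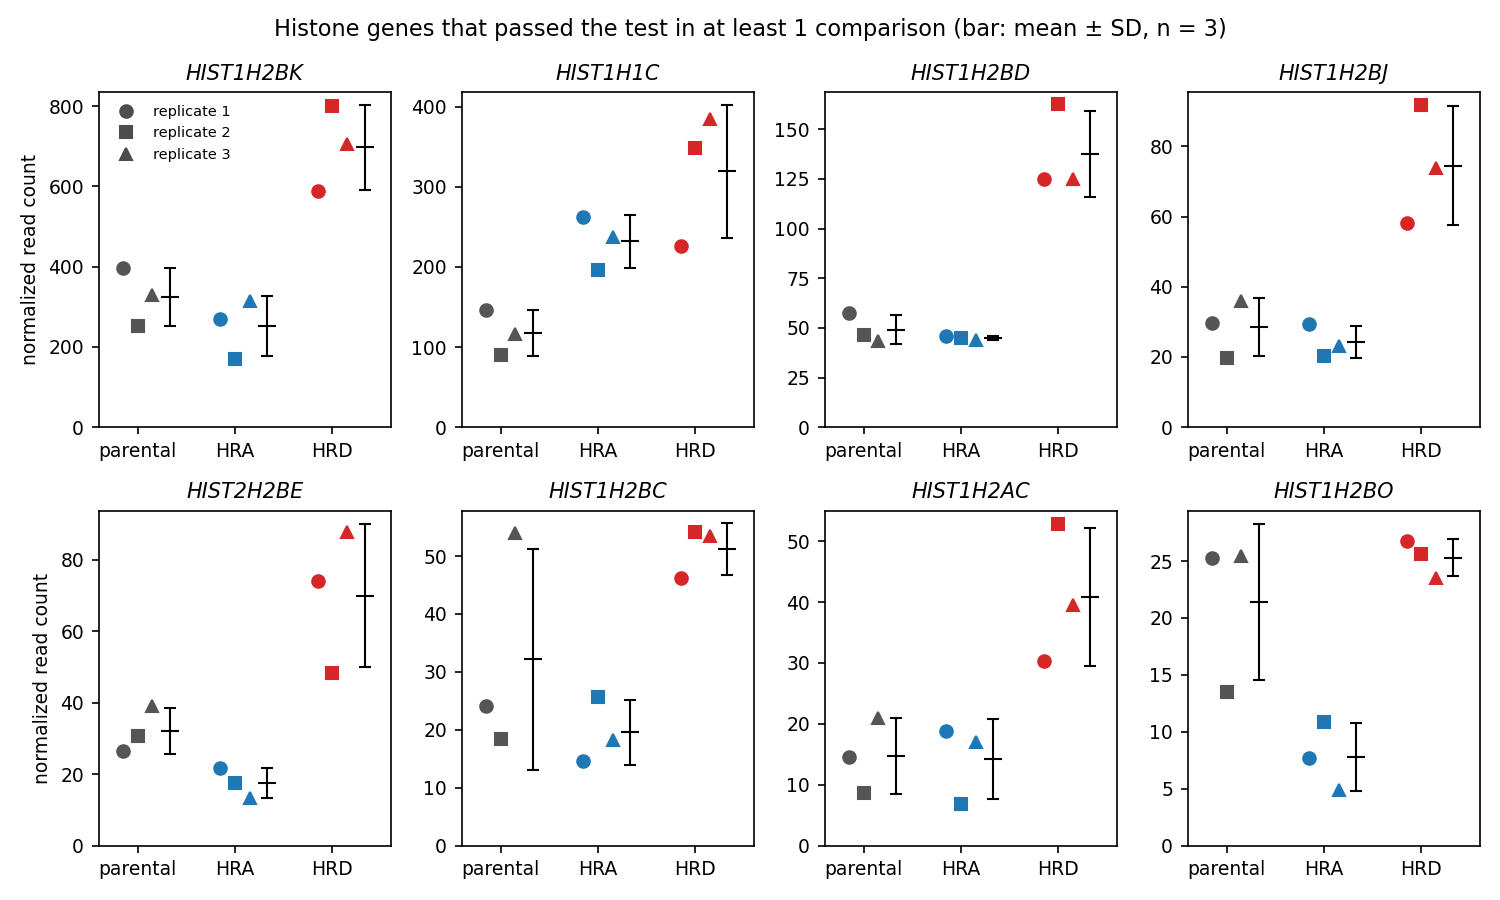
Normalized read counts (vertical axes, each starting at 0) of the 8 histone genes that passed the test in at least 1 comparison, in parental, HRA and HRD libraries. Points are single libraries with a symbol per replicate number, and bars are the mean ± SD of 3 libraries. The HRD libraries of HIST1H2BK sit between 589 and 799.9, above all 6 others, and all HRA libraries of HIST1H1C lie above the parental ones.

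In HRD cells, 6 of the 23 tested histone genes were higher than in parental cells and none was lower. These 6 were HIST1H1C, which encodes a linker histone that binds DNA between nucleosomes, HIST1H2AC, which encodes an H2A, and HIST1H2BD, HIST1H2BJ, HIST1H2BK and HIST2H2BE, which encode H2B, the partner of H2A in the core particle. The changes lay between 2.11-fold and 2.76-fold on the scale of value + 1. Of all 12569 tested genes, 10.7% were called higher in this comparison and 12% lower, 22.8% in either direction, against 26.1%, 0 and 26.1% of the histone genes. Calls rest on limma with an adjusted p below 0.05 over all tested genes. edgeR and DESeq2 on the recovered reads also gave 6 higher and 0 lower, and at an unadjusted p below 0.05 limma gave the same 6 and 0. The median log2 fold change of the 23 genes was 0.58, with 19 of them above 0, and that of all tested genes was 0.01. The 23 include 2 genes tested only because of their HRD libraries and 2 only because of their parental libraries. They also include genes that needed libraries of more than 1 group to be tested. The histone genes were measured with a wider error than most genes: their median standard error was 0.43, against 0.13 over all tested genes.

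The linker histone gene HIST1H1C read 146, 89.6 and 117 in the parental libraries, 262, 196 and 238 in the HRA libraries and 226, 348 and 385 in the HRD libraries. Every library of either resistant group lay above every parental one, and the HRA and HRD ranges overlapped. The log2 fold change was 1.43 ± 0.23 in HRD cells (SE of the fit, adjusted p = 0.00141). HIST1H1C held nearly all H1 reads: the other 4 H1 genes summed to 18.9 ± 9.98, 11.9 ± 6.15 and 16.9 ± 7.51 in parental, HRA and HRD cells (SD, n = 3), and none of them was tested. No window of 50 bases in its annotated coding sequence occurs in another gene.

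HIST1H2BK, the most strongly read histone gene, had values of 396, 252 and 328 in parental cells. It had 269, 169 and 316 in HRA and 589, 799.9 and 704 in HRD cells. The HRD libraries were highest without overlap, and the HRA and parental ranges overlapped. The rise in HRD cells was 1.11 ± 0.23 on the log2 scale (adjusted p = 0.0058). H2B genes are close copies of each other, and 74.1% of the 50-base windows in the annotated HIST1H2BK sequence, which holds the coding part only, occur in other genes. How the authors counted reads that match several genes is not given in the sources used here, so its share of the H2B reads is uncertain.

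HIST1H2BD, an H2B gene with less shared sequence (5.36% of windows) that overlaps the pseudogene LARP1P1 on the same strand, gave the smallest adjusted p of the histone genes. Its values were 57.2, 46.6 and 43.5 in parental, 46.1, 44.6 and 43.9 in HRA and 125, 163 and 125 in HRD cells. The 6 parental and HRA libraries lay close together and all 3 HRD libraries lay far above them. The log2 fold change in HRD cells was 1.47 ± 0.20 (adjusted p = 4.34e-04). HIST1H2BJ, which lies near HIST1H2BK in the locus, read 29.7, 19.6 and 35.97, then 29.3, 20.3 and 23.1 in HRA and 58.04, 91.9 and 73.7 in HRD cells. It showed the same order, HRD above the other groups without overlap, with a log2 fold change of 1.38 ± 0.29 (adjusted p = 0.00647).

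HIST2H2BE, an H2B gene of the HIST2 locus on chromosome 1, was the one tested histone gene whose 3 groups were all separate. Its values were 21.6, 17.6 and 13.4 in HRA, 26.4, 30.7 and 38.97 in parental and 73.9, 48.2 and 87.6 in HRD cells. The HRD rise over parental was 1.08 ± 0.30 (adjusted p = 0.0243), and the HRA difference was −0.84 ± 0.30, which did not pass (adjusted p = 0.0831). HIST1H2AC, which encodes an H2A, read 14.6, 8.59 and 20.98 in parental, 18.8, 6.76 and 17.1 in HRA and 30.3, 52.7 and 39.5 in HRD cells. Its HRD libraries lay above the rest, with a log2 fold change of 1.46 ± 0.44 (adjusted p = 0.0336). Both of these calls depended on single libraries. With parental replicate 1 or 2 left out, the adjusted p of HIST1H2AC rose to 0.068 or 0.11. With HRD replicate 2 or 3 left out, it was 0.115 or 0.0769. For HIST2H2BE it was 0.0783 or 0.0602 with parental replicate 1 or 2 left out, and 0.0647 or 0.0899 with HRD replicate 1 or 3 left out. HIST1H2BC, an H2B gene at 0.80 ± 0.38, did not pass against parental cells (adjusted p = 0.153), but gave 0.0208 without parental replicate 3.

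In HRA cells, 1 of the 23 tested histone genes was higher than in parental cells, HIST1H1C, and 1 was lower, HIST1H2BO, an H2B gene. Of all tested genes, 9.13% were called higher and 6.1% lower in this comparison, and 4.35% of the tested histone genes were called in each direction, a share below that of all genes. The HIST1H1C values given above differed by 0.99 ± 0.23 on the log2 scale (adjusted p = 0.016). HIST1H2BO read 25.3, 13.5 and 25.5 in parental and 7.68, 10.8 and 4.87 in HRA cells, with every HRA library below every parental one. Its log2 fold change was −1.35 ± 0.37 (adjusted p = 0.0305), a 2.56-fold fall. Leaving out parental replicate 2 gave HIST1H1C an adjusted p of 0.0535, and leaving out HRA replicate 1 gave 0.0737. For HIST1H2BO, leaving out parental replicate 1 or 3 gave 0.0904 or 0.0869, and leaving out HRA replicate 1 or 3 gave 0.0855 or 0.0944, so neither call held in every such fit. HIST1H4C, an H4 gene, lay at 31.99, 38.03 and 44.96 in parental and 20.2, 29.8 and 17.1 in HRA cells. These groups did not overlap, but the difference of −0.78 ± 0.27 did not pass (adjusted p = 0.0797). In all, the libraries of 4 tested histone genes were lower in HRA than in parental cells without overlap and those of 1 were higher (17.4% and 4.35%), against 18.7% and 19.3% of all tested genes. The median log2 fold change of the 23 genes was −0.20, with 8 above 0, beside −0.01 over all tested genes. Among the 23, 2 genes were tested only because of their parental libraries and 1 only because of its HRA libraries. Further genes among them needed libraries of more than 1 group.

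**Figure D2:**
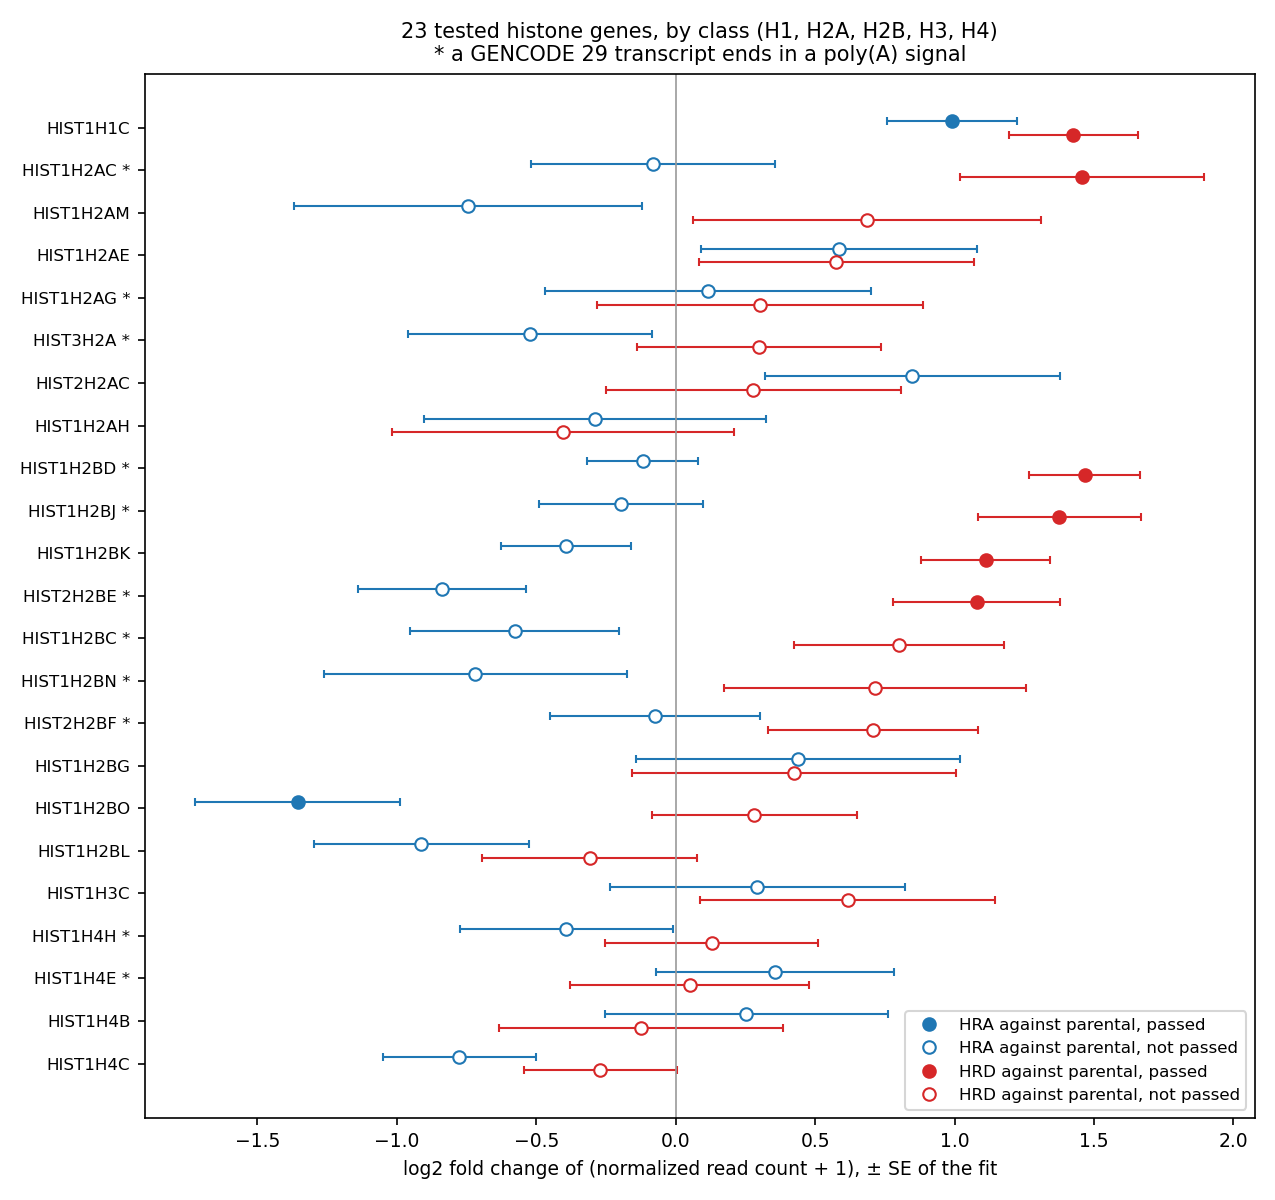
Log2 fold changes of value + 1 (horizontal axis, ± SE of the limma fit) of the 23 tested histone genes in HRA and in HRD cells against the same parental libraries, grouped by class on the vertical axis. Filled points passed at an adjusted p below 0.05, and an asterisk marks genes with an annotated transcript that ends in a poly(A) signal. The 6 filled HRD points belong to 1 H1, 1 H2A and 4 H2B genes, and the 4 H4 genes lie between −0.27 and 0.13 in HRD cells.

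Compared directly, 7 tested histone genes were higher in HRD than in HRA cells and none was lower. The 7 were 6 H2B genes (HIST1H2BC, HIST1H2BD, HIST1H2BJ, HIST1H2BK, HIST1H2BO and HIST2H2BE) and the H2A gene HIST1H2AC. Of all tested genes, 13.9% were higher and 16.2% lower in this comparison, 30.1% in either direction, against 30.4%, 0 and 30.4% of the histone genes. edgeR and DESeq2 also gave 7 and 0, and at an unadjusted p below 0.05 limma gave 9 genes higher and 0 lower. The libraries of 11 histone genes (47.8%) did not overlap, with HRD higher, against 22.8% of all tested genes, and those of 0 did so with HRD lower, against 24.2%. The median log2 fold change was 0.60 over the 23 genes and 0.00 over all tested genes. These counts and medians include the 2 genes tested only because of their HRD libraries and the 1 tested only because of its HRA libraries. Genes that needed libraries of more than 1 group are included too. HIST2H2BE differed most, by 1.92 ± 0.30 (adjusted p = 9.17e-04), followed by HIST1H2BO at 1.64 ± 0.37 (adjusted p = 0.00703). HIST1H2BO read 26.8, 25.6 and 23.5 in HRD cells, overlapping the parental libraries, against which its log2 fold change was 0.28 ± 0.37. HIST1H2BC read 14.7, 25.7 and 18.3 in HRA and 46.1, 54.2 and 53.4 in HRD cells, without overlap, while its parental values of 24.1, 18.4 and 53.96 overlapped both. The calls of HIST1H2BD, HIST1H2BJ, HIST1H2BK, HIST1H2BO and HIST2H2BE held without any 1 library. The adjusted p of HIST1H2BC was 0.0734 with HRA replicate 1 left out and 0.0501 with replicate 3. For HIST1H2AC it was 0.0763 with HRA replicate 2 left out, and 0.0728 or 0.0529 with HRD replicate 2 or 3. HIST1H2BN, at 1.43 ± 0.54, lay just outside the threshold (adjusted p = 0.0664). HIST1H1C, which rose in both resistant groups, differed between them by 0.43 ± 0.23 and did not pass (adjusted p = 0.178), although it gave 0.048 without HRD replicate 1.

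By class, the summed reads moved unequally. The 17 H2B genes summed to 624, 461 and 591 in parental, 447, 342 and 456 in HRA and 1003, 1267 and 1147 in HRD cells. HRA libraries were the lowest and HRD the highest, with no overlap between any 2 groups. The same held for the 16 H2B genes without HIST1H2BK, at 228, 209.8 and 262, then 178, 173 and 140.1 in HRA and 414, 467 and 442 in HRD cells. The H1 sum, nearly all HIST1H1C, averaged 137 ± 27.3, 244 ± 32.03 and 336 ± 85.96 in parental, HRA and HRD cells (SD, n = 3). The 15 H2A genes averaged 73.9 ± 24.3, 76.1 ± 6.91 and 116 ± 40.5, and the 9 H3 genes 29.8 ± 7.93, 30.8 ± 10.1 and 43.8 ± 20.8, with overlapping libraries for both. The 11 H4 genes averaged 113 ± 13.7 in parental, 94.9 ± 47.6 in HRA and 104 ± 7.19 in HRD cells, also overlapping. Per class, the calls in HRD against parental cells were 1 of 1 tested H1 gene, 1 of 7 H2A, 4 of 10 H2B, 0 of 1 H3 and 0 of 4 H4 genes. All of these calls were higher in HRD cells, beside 10.7% of all tested genes. The differences between classes were not tested. The H4 genes with most reads after HIST1H4C were HIST1H4H, at 20.8, 26.99 and 16.5 in parental, 11.2, 28.4 and 12.2 in HRA and 26.3, 25.6 and 18.2 in HRD cells, and HIST1H4E, whose means were 14.9, 18.5 and 14.5. Neither passed in any comparison.

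**Figure D3:**
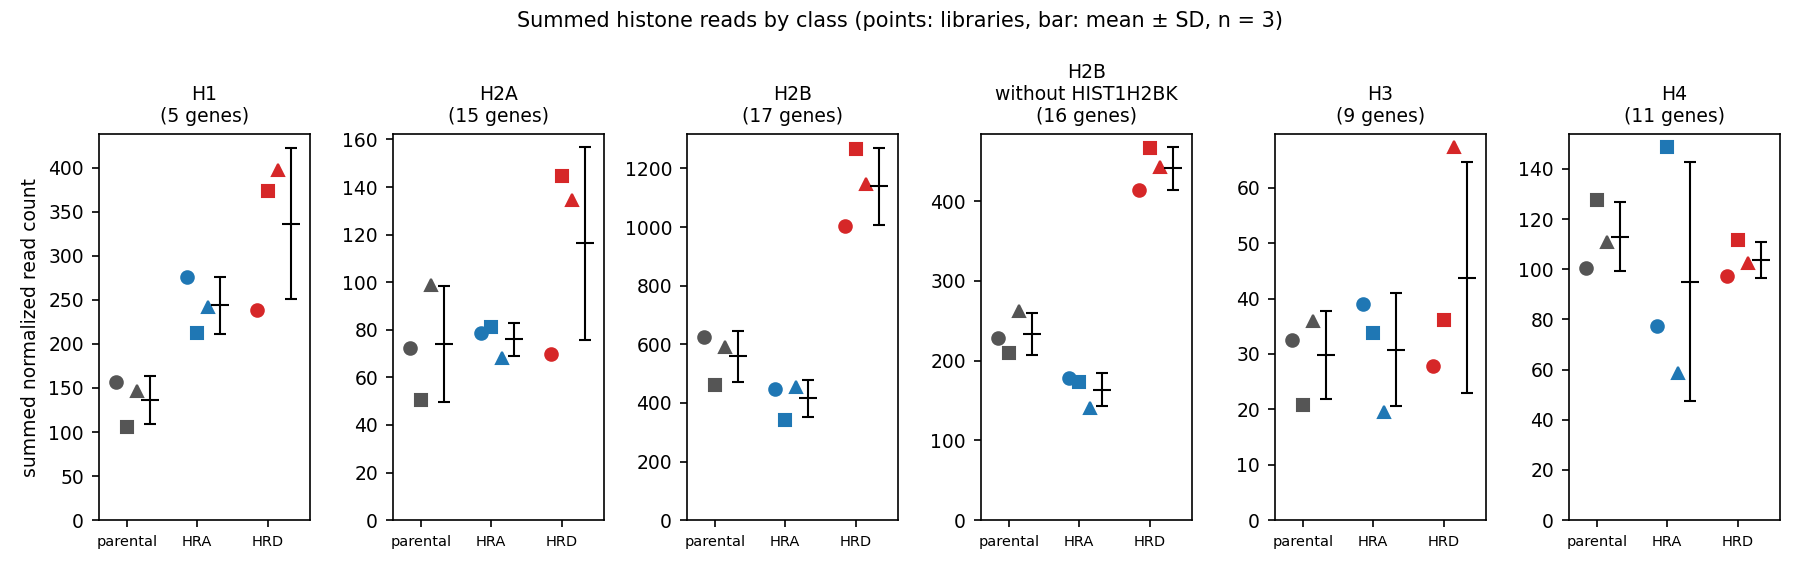
Summed normalized read counts (vertical axes, each starting at 0) of the genes of each histone class in parental, HRA and HRD libraries. Points are libraries and bars the mean ± SD of 3. The H2B sums of the 3 groups are separate with and without HIST1H2BK, and the H4 sums overlap.

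The smaller loci behaved as follows. In the HIST2 locus, HIST2H2BF, an H2B gene that overlaps FCGR1A on the opposite strand, averaged 18.9 ± 8.90, 17.2 ± 5.48 and 29.3 ± 2.46 in parental, HRA and HRD cells (SD, n = 3) and passed no comparison. FCGR1A itself, an Fc receptor gene, was at 2.46 in HRA and 0.82 in HRD cells against parental cells (log2 fold change), and whether the counting used strand is not given in the sources used here. In the HIST3 locus, HIST3H2A read 7.86, 9.82 and 14.99 in parental, 8.38, 6.76 and 6.09 in HRA and 7.94, 12.1 and 23.5 in HRD cells, and HIST3H2BB had 13 reads in all libraries. Of the 20 tested genes flanking HIST3, 13 were lower in HRA and 12 in HRD than in parental cells (medians −0.50 and −0.38), and 1 was higher in each. Over all tested genes, 6.1% and 12% were lower. HIST4H4, the single H4 gene on chromosome 12, had 26 reads in all, with values of 3.37, 1.23 and 4.50, then 2.79, 9.47 and 2.44 in HRA and 0, 1.51 and 2.14 in HRD cells. Neither HIST3H2BB nor HIST4H4 met the requirement for testing. Their values rest on few reads, and differences between the groups were not tested for them.

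Genes next to the loci were examined because a whole chromosome region can change together. Of the 20 tested protein-coding genes flanking HIST1 on chromosome 6, in RefSeq order, 6 were higher and 1 was lower in HRD than in parental cells, with a median log2 fold change of 0.20. The shares of all tested genes were 10.7% higher and 12% lower in this comparison. Among the 10 lying inside the locus, 2 were higher and none lower (median 0.17). The flanking genes with the smallest adjusted p were ACOT13, a thioesterase gene, at 0.94 ± 0.10 (adjusted p = 8.78e-05), and SOX4, a transcription factor gene, at 0.88 ± 0.13 (adjusted p = 6.53e-04). Inside, they were BTN3A3, at 0.53 ± 0.11, and BTN3A1, at 0.60 ± 0.13, both butyrophilin genes (adjusted p = 0.00549 and 0.00738). Against HRA cells, 8 flanking genes were higher and none lower in HRD cells (median 0.31), and 2 inside were higher (median 0.13). There the shares of all tested genes were 13.9% higher and 16.2% lower. Flanking genes of HIST2 were higher in HRD cells in 5 cases of 20 and lower in none against parental cells (median 0.09). Against HRA cells, 6 of them were higher and 2 lower (median 0.16). Where limma called none of these neighbours lower, edgeR and DESeq2 also called 0, and at an unadjusted p below 0.05 limma gave 1 flanking gene of HIST2 and 0 in the other cases. The part of a shift of the region in the histone values was not tested.

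Many H2A and H2B genes sit back to back and share the stretch between their starts. Starts within 500 bases of each other on opposite strands were found for 9 pairs, and both genes were tested in 5, with starts 233 to 248 bases apart. HIST1H2BC and HIST1H2AC were both higher in HRD than in HRA cells, by 1.38 and 1.54. HIST2H2BE rose by 1.92, while HIST2H2AC across the shared stretch was at −0.57 ± 0.53 and did not pass (adjusted p = 0.444). The HIST2H2AC model holds the coding sequence only, and 30.5% of its windows are shared with other genes. HIST2H2AC read 13.3, 6.76 and 14.6 in HRA and 3.47, 7.53 and 12.8 in HRD cells, which overlap. Likewise HIST1H2BJ rose by 1.57, and HIST1H2AG was at 0.19 ± 0.58 (adjusted p = 0.834). HIST1H2BO rose by 1.64, and HIST1H2AM, 86.3% of whose windows are shared with other genes, was at 1.43 ± 0.62 (adjusted p = 0.104). HIST1H2BG and HIST1H2AE, in the remaining pair, were at −0.01 and −0.01. The differences within pairs were not tested, and 1 gene of a pair passing does not show that the other did not change.

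**Figure D4:**
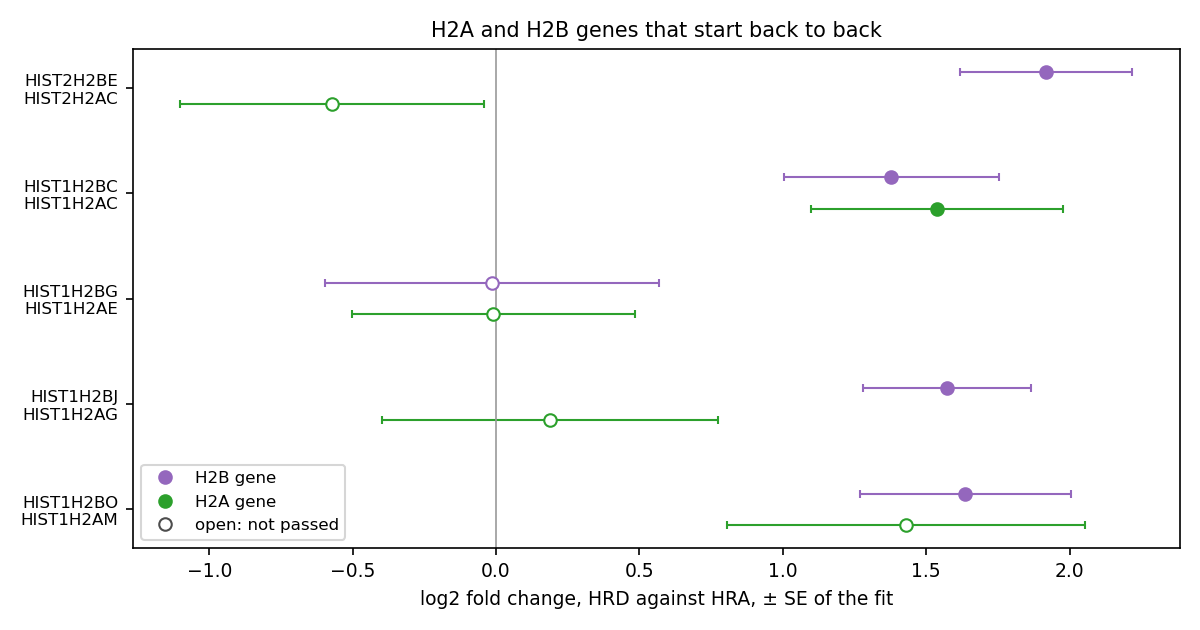
Log2 fold changes of HRD against HRA cells (horizontal axis, ± SE of the limma fit) for the 5 back-to-back pairs of H2B (purple) and H2A (green) genes on the vertical axis. Filled points passed at an adjusted p below 0.05. HIST2H2BE at 1.92 and HIST2H2AC at −0.57 lie farthest apart, and the members of the HIST1H2BG pair lie together near 0.

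The 200 bases before the start of the genes are shown for 4 of the 6 genes raised in HRD cells (RefSeq, GRCh38.p14): the most strongly read H2B and H1 genes, HIST1H2BJ as the H2B gene closest to HIST1H2BK in this stretch, and HIST2H2BE as the gene outside HIST1. Capitals mark 3 motifs, searched on either strand. One is the CCAAT box, bound by the factor NF-Y, which reads ATTGG when it lies on the opposite strand. Another is the TATA box, searched as TATAAA. The last is the octamer ATGCAAAT, which reads ATTTGCAT on the opposite strand and is bound by POU2F1, a factor known for its part in H2B transcription.
HIST1H2BK: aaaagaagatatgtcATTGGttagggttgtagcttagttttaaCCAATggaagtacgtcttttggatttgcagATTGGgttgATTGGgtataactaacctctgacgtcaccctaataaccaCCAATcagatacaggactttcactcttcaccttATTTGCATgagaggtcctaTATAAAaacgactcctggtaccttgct
HIST1H2BJ: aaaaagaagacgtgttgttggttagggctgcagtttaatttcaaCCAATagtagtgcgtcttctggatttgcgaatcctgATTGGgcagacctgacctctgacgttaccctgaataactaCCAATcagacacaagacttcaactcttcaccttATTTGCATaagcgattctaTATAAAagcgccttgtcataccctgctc
HIST2H2BE: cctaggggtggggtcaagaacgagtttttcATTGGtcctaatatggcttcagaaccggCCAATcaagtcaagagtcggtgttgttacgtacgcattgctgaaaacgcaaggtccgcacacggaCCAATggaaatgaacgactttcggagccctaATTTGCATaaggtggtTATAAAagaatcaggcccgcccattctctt
HIST1H1C: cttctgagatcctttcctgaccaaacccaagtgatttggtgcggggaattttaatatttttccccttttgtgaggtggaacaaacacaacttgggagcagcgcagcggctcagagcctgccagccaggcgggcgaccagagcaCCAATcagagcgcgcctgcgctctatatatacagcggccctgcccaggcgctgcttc
All 4 are written 5′ to 3′ on the strand of the gene, which is the minus strand in each case, and lie at chr6:27146859-27147058, chr6:27132796-27132995, chr1:149886683-149886882 and chr6:26056471-26056670. The 3 H2B stretches each hold all 3 motifs, with the octamer just before the TATA box, and that of HIST1H1C holds CCAAT alone. Promoters were matched for 45 of the 57 histone genes. CCAAT was found in 38 of these (84.4%), against 28.9% of the 27305 stretches of the same length in the table. TATAAA was found in 28 (62.2%), against 8.92%, and the octamer in 16 (35.6%), against 1.32%. The octamer lay in 10 of 14 matched H2B genes and 6 of 31 others. All 6 genes raised in HRD cells against parental cells held CCAAT, 5 held TATAAA and 4 the octamer, while of the 21 tested genes with a matched promoter 18, 11 and 11 did. Among the 210 pairs of these 21 promoters, that of HIST1H2BJ and HIST1H2BK was the most alike, with 78.8% of aligned positions identical, beside a median of 51.5%. A motif is a match of letters and shows no binding.

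The annotated 3′ ends bear on what polyadenylated libraries can hold. A poly(A) signal at the end of an annotated transcript was present for 11 of the 23 tested histone genes. In HRD against parental cells, 4 of these 11 were higher, HIST1H2AC, HIST1H2BD, HIST1H2BJ and HIST2H2BE, with a median log2 fold change over the 11 of 0.71. Of the 12 without an annotated signal 2 were higher, HIST1H1C and HIST1H2BK, with a median over the 12 of 0.35, and the models of both hold the coding sequence only. In all, the models of 7 of these 12 genes hold the coding sequence only and could show no signal. Of all tested genes, 10.7% were higher in this comparison. Against HRA cells, 5 of 11 with the signal were higher (median 1.38) and 2 of 12 without it (median 0.38), beside 13.9% of all tested genes. None of the 11 passed in HRA against parental cells, at a median of −0.20, and 1 of the 12 was higher and 1 lower, at −0.02. The difference between the genes with and without a signal was not tested. HIST1H4E and HIST1H4H, whose hairpins are shown above, did not pass in any comparison.

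Genes that make and handle histone messages were examined next. The counts of the lists that follow stand beside 9.13% higher and 6.1% lower of all tested genes in HRA against parental cells. These shares were 10.7% and 12% in HRD against parental cells, and 13.9% and 16.2% in HRD against HRA cells. SLBP, the stem-loop binding protein that is needed for the histone 3′ end, read 3816, 4145 and 3371 in parental, 3877, 4072 and 3849 in HRA and 3836, 3169 and 3287 in HRD cells. The 3 groups overlapped, and SLBP passed in no comparison (adjusted p of 0.698 in HRA and 0.343 in HRD cells against parental cells). Of the 32 genes of histone 3′ end formation and decay, 5 were higher and 2 lower in HRA, and 1 was higher and 6 lower in HRD than in parental cells. In HRD against HRA cells 1 of the 32 was higher and 9 were lower. ERI1, the exonuclease that trims the hairpin, was at 896, 904 and 886 in parental and 1336, 1334 and 1299 in HRA cells and rose there by 0.56 ± 0.09 (adjusted p = 0.0018). LSM11, a protein of the U7 particle, fell in HRD cells, with a log2 fold change of −0.43 ± 0.10 (adjusted p = 0.011). CSTF2T, a paralogue of the cleavage stimulation factor subunit CSTF2, changed most. It read 246, 275 and 64.4 in parental, 50.96, 68.99 and 67.01 in HRA and 5.95, 7.53 and 3.21 in HRD cells, so parental replicate 3 lay within the HRA range and all HRD libraries far below. The log2 fold change was −4.71 ± 0.49 in HRD against parental cells (adjusted p = 6.22e-05). SNRPE, a core protein of small nuclear ribonucleoproteins, fell in both, with −0.50 ± 0.08 in HRA and −0.46 ± 0.08 in HRD cells, which share the parental libraries (adjusted p = 0.0021 and 0.00172).

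Of the 13 genes of histone gene transcription, 4 were higher and none lower in HRA cells, and none was higher and 4 lower in HRD cells, against parental cells. NPAT, the co-activator that gathers at histone loci, read 1294, 1498 and 1376 in parental, 1688, 1741 and 1697 in HRA and 1089, 1122 and 1073 in HRD cells, with no overlap between groups. It was −0.64 ± 0.08 in HRD against HRA cells (adjusted p = 2.18e-04). Against parental cells it was −0.34 ± 0.08 in HRD (adjusted p = 0.0109, and just above the threshold without parental replicate 2) and 0.30 ± 0.08 in HRA cells (adjusted p = 0.0286, and 0.0302 to 0.104 without 1 library, passing without parental replicate 2 alone). The cyclin E genes CCNE1 and CCNE2, whose kinase activates NPAT, rose in HRA cells by 0.83 ± 0.11 and 1.03 ± 0.17 (adjusted p = 9.29e-04 and 0.00319). CDK2, the kinase itself, and E2F1, a transcription factor of the S phase, fell in HRD cells, with −0.43 ± 0.08 and −0.60 ± 0.13 (adjusted p = 0.0027 and 0.00579). CASP8AP2, a partner of NPAT, was at 0.09 in HRA and −0.13 in HRD cells and passed in neither. In HRD against HRA cells none of the 13 was higher and 9 were lower, the reverse of the direction of the called histone genes. Where limma called none of the 13, edgeR and DESeq2 also called 0, and at an unadjusted p below 0.05 limma gave 1 gene lower in HRA against parental cells and 0 in the other cases.

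Of 30 genes of DNA replication in the S phase, 6 were higher and none lower in HRA, and none was higher and 5 lower in HRD cells, against parental cells. In HRD against HRA cells 13 were lower and none higher. Where limma called none, edgeR and DESeq2 also called 0, and at an unadjusted p below 0.05 limma gave 2 genes higher in HRD against parental cells and 0 in the other cases. CDC6, which loads the replicative helicase, read 4597, 4933 and 4444 in parental, 5224, 5719.6 and 5430.1 in HRA and 2741, 2871 and 2465 in HRD cells. The HRD libraries lay below the rest, at −0.79 ± 0.08 against parental cells (adjusted p = 5.94e-05). MCM4, a helicase subunit, rose in HRA cells by 0.51 ± 0.09 (adjusted p = 0.00305) and was at −0.05 ± 0.09 in HRD cells. Of the 23 chaperones and carriers of histones, 3 were higher and 1 lower in HRA, and none was higher and 5 lower in HRD cells, against parental cells, where edgeR, DESeq2 and limma at an unadjusted p below 0.05 also gave 0 higher. In HRD against HRA cells 1 of these 23 was higher and 9 were lower. CHAF1A, a subunit of the factor that deposits H3 and H4 on new DNA, rose in HRA cells by 0.49 ± 0.08 (adjusted p = 0.00241). NAP1L1, a carrier of H2A and H2B, fell in HRD cells, with −0.57 ± 0.10 (adjusted p = 0.00167).

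Replacement histones are made from ordinary polyadenylated messages at any time in the cell cycle, and 8 of the 11 in the table were tested. None passed in HRD against parental cells by limma in the fit used here or by edgeR. DESeq2 called 1 lower there, and at an unadjusted p below 0.05 limma gave 2 lower and 0 higher. In HRA cells 2 were called lower, both close to the threshold. H1FX, a linker variant, read 667, 373 and 495 in parental, 256, 181 and 207 in HRA and 233, 691 and 750.2 in HRD cells, with HRD replicate 1 apart from the other two. The log2 fold change of H1FX was −1.22 ± 0.38 in HRA cells (adjusted p = 0.0494, and 0.0481 to 0.151 without 1 library). This call was lost with the replicate block, which adds the replicate number to the limma fit (adjusted p = 0.0528), and it held in 6 of 18 alternatives. H2AFZ, the H2A variant at promoters, was the other gene lower in HRA cells, at −0.36 ± 0.11 (adjusted p = 0.0424, and 0.0215 to 0.143 without 1 library), a call that held in 10 of 18 alternatives. H3F3A and H3F3B, which encode the H3 variant H3.3, were at −0.09 and −0.37 in HRD cells and did not pass (adjusted p = 0.675 and 0.0505). H3F3B was the gene that DESeq2 called lower (adjusted p = 0.0206), and limma also called it in 4 alternatives, among them a pseudocount of 5 (adjusted p = 0.0499). H2AFX, the variant that is phosphorylated at DNA breaks, was at −0.09 (adjusted p = 0.795). H1F0, the linker variant of resting cells, was without reads in 8 of 9 libraries. In HRD against HRA cells, 3 of the 8 were higher and 1 lower, beside 13.9% and 16.2% of all tested genes. H1FX was at 1.21, H2AFZ at 0.37 and H2AFY at 0.30 (adjusted p = 0.0312, 0.0206 and 0.0396). H2AFV was at −0.35 (adjusted p = 0.0175). Each of these limma calls held in 10 to 12 of 18 alternatives.

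**Figure D5:**
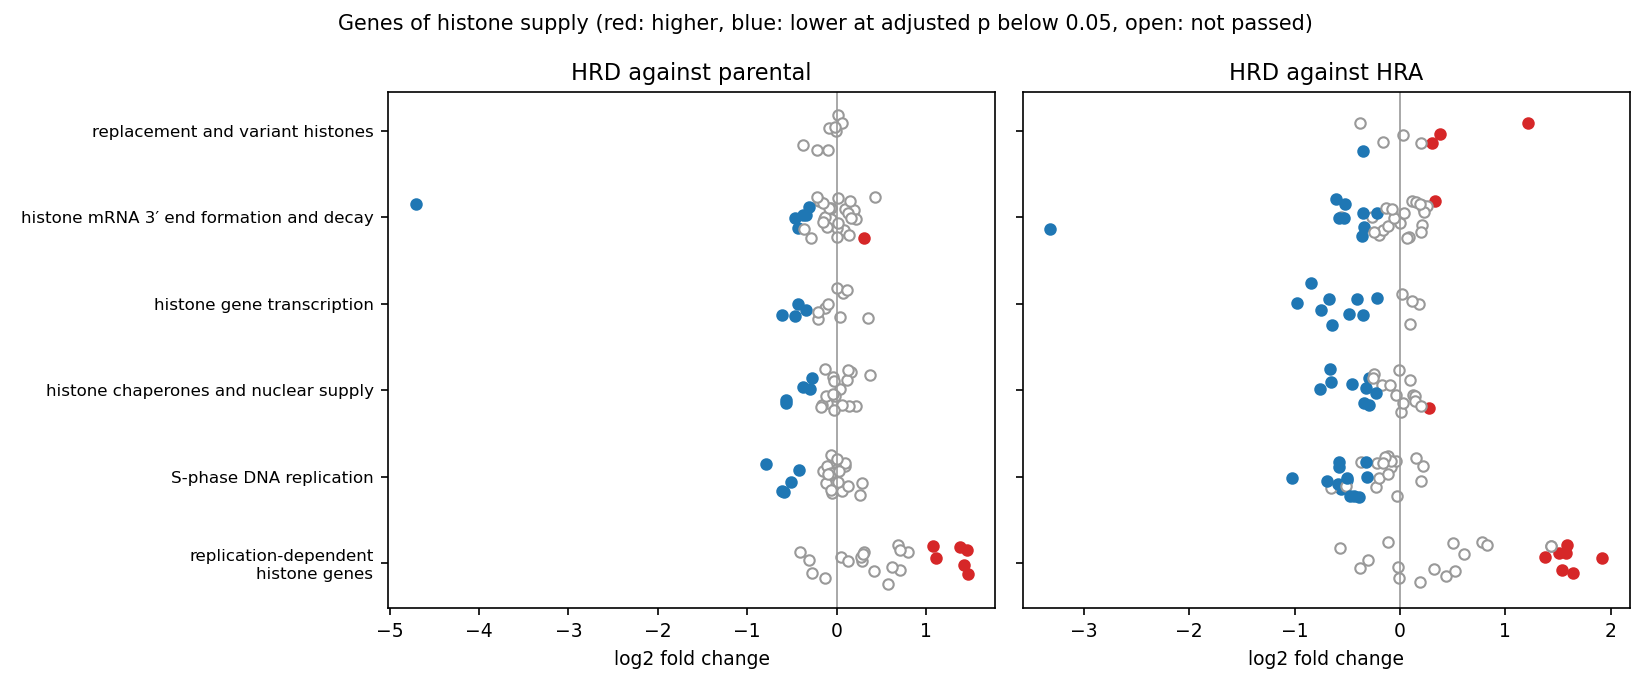
Log2 fold changes (horizontal axes) of the tested genes of 5 lists of histone supply and of the 23 tested replication-dependent histone genes (rows), for HRD against parental cells (left) and HRD against HRA cells (right). Each point is a gene, red where higher and blue where lower at an adjusted p below 0.05, open where it did not pass. In HRD against HRA cells the called genes of transcription and of DNA replication all lie below 0 (9 and 13) and the 7 called histone genes above it.

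The identity of the cells was checked with marker genes. Promyelocyte genes summed to between 372315 and 464885 in every library, with MPO, the myeloperoxidase gene, at least 199686 throughout, while ELANE, the neutrophil elastase gene, was at most 4.06. Of the 7 promyelocyte genes tested, 2 were higher and 1 was lower in HRD than in parental cells, and 3 were higher and 2 lower in HRA cells. Sums of B-cell, T-cell, erythroid and fibroblast markers were at most 47.3 in any library, but those of lymphoid cells moved with the groups. The 3 B-cell markers in the table summed to 8.99 to 19.6 in parental, 23.1 to 47.3 in HRA and 1.51 to 6.45 in HRD cells, without overlap. CD79A, a subunit of the B-cell receptor and the only one of them tested, fell in HRD cells, with −1.60 ± 0.47 against parental and −2.71 ± 0.47 against HRA cells (adjusted p = 0.0304 and 0.00165). The 4 T-cell markers, none of which was tested, summed to 17.96 to 18.4 in parental, 12.2 to 31.1 in HRA and 2.14 to 3.01 in HRD cells, so HRD libraries were the lowest. Epithelial markers were highest in the HRD group: the 3 in the table summed to 69.9 to 104.9 in parental, 91.4 to 151.5 in HRA and 284 to 401 in HRD cells. Nearly all of it was KRT8, a keratin gene, at 2.09 ± 0.23 in HRD against parental cells (adjusted p = 1.09e-04), while KRT18 was at most 9.04 and CDH1, the gene of E-cadherin, at most 1.51. The part of these markers in the histone values was not tested.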

How the data were processed

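RNA of parental, HRA and HRD HL-60 cells (3 biological replicates each, per the labels) was made into stranded libraries of polyadenylated RNA. The submitters' processing notes name HTSeq 0.11.1, Cufflinks 2.2.1, Picard, DESeq2, Bowtie2 2.3.5.1, TopHat2 2.1.1 and the build hg19. Their roles, the annotation, the strand setting and the treatment of reads matching several genes are not given in the sources used here. The signal that the authors deposited holds reads per gene scaled by 1 size factor for each library. All values (100%) were whole reads within a tolerance of 0.001, and these recovered reads gave the depths.

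Testing needed 3 or more of the 9 libraries with a value of 10 or more (12569 genes, 99.97% of reads). In R 4.3.3, limma 3.58.1 fitted log2(value + 1) of the 9 libraries together, with the variance modelled as a trend. Adjusted p-values are Benjamini-Hochberg values over all tested genes of a comparison, with a threshold of 0.05. The pseudocount of 1 understates fold changes of low genes. An exact test of 3 against 3 libraries cannot pass this threshold. Alternatives were edgeR 4.0.16 and DESeq2 1.42.0 on the recovered reads, other pseudocounts, filters and scaling, 2-group fits, a replicate block and left-out libraries. Same-numbered HRA and parental libraries deviated together (correlations 0.22, 0.38 and 0.14). The replicate block therefore added the replicate number to the fit of all 9 libraries. Unless another fit is named, p-values come from limma without this block, so they ignore the numbers. In HRA against parental cells the block left the histone calls at 1 higher and 1 lower.

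Histone genes are named if they passed in a comparison, had an adjusted p of 0.05 to 0.1, were among the 12 highest means or lay in HIST3 or HIST4. For the other lists, fixed genes and the 4 smallest adjusted p-values per comparison could be named, and for flanking genes 2. The back-to-back partners, HIST1H2BG and HIST1H2AE among them, were named after their values were seen. Members and lists were chosen with earlier results of these data known. Stem-loops, poly(A) signals and shared windows of 50 bases came from GENCODE 29, promoters and gene order from RefSeq (GRCh38.p14).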

Additional observations from a re-analysis of the deposited data

Results flagged for a closer look

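For 7 histone genes the change in HRD cells and the change in HRA cells, both taken against the same parental libraries, differed when the difference itself was tested in limma. That difference equals the log2 fold change of HRD against HRA cells. It was 1.92 for HIST2H2BE, 1.64 for HIST1H2BO, 1.58 for HIST1H2BD, 1.57 for HIST1H2BJ, 1.54 for HIST1H2AC, 1.51 for HIST1H2BK and 1.38 for HIST1H2BC. All 7 were higher in HRD cells, and in each of them every HRD library lay above every HRA library. The 2 genes with the smallest values among them, HIST1H2AC and HIST1H2BO, had means of 40.8 and 25.3 in HRD and 14.2 and 7.79 in HRA cells.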

How the results depend on the processing

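The histone counts moved with the filter and with the number of libraries. With a mean of at least 50 required, where only 3 histone genes are tested, 3 were higher in HRD than in parental cells (6 of the 23 in the report), 2 in HRD against HRA cells (7 in the report) and 0 were lower in HRA cells. With no filter, 4 were higher in HRD than in parental cells, the calls of HIST1H2AC (adjusted p = 0.0656) and HIST2H2BE (adjusted p = 0.0578) being lost, and 8 in HRD against HRA cells. The count lower in HRA cells was also 0 with no filter and in the 2-group fit. Without 1 library or 1 replicate number, the counts ranged from 0 to 1 higher and 0 to 1 lower in HRA, from 3 to 7 higher in HRD against parental cells and from 5 to 8 higher in HRD against HRA cells. The 3 arose without replicate number 3. Without replicate number 2 the HRD call of HIST1H2BJ (adjusted p = 0.0807), and without number 3 that of HIST1H2BK (adjusted p = 0.0592), were lost. HIST1H2BD and HIST1H1C passed in HRD against parental cells in all 18 alternatives. The replicate block gave 1 higher and 1 lower in HRA, 6 and 0 in HRD against parental cells, and 8 and 0 in HRD against HRA cells, the added gene being HIST1H2BN. With the block, H3F3B was called lower in HRD than in parental cells (adjusted p = 0.0162), LSM11 was called lower in HRD than in HRA cells (adjusted p = 0.0464) and H1FX lost its call in HRA cells (adjusted p = 0.0528), and no other gene refitted under each alternative changed its call with the block. The block moved the counts of all genes higher and lower in HRA cells from 1148 and 767 to 1572 and 1202. In HRD against parental cells they moved from 1350 and 1513 to 1744 and 1895. In HRD against HRA cells they moved from 1749 and 2038 to 2257 and 2416. Same-numbered HRD libraries correlated with parental ones at −0.08, 0.26 and 0.29 and with HRA ones at −0.03, 0.41 and 0.23. Replicate number 1 was below 0 in both, and whether the number pairs the libraries was not tested.

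Some changes near 0 took the other sign, and the cause was not tested. H1FX in HRD against parental cells was called after the turn, at 0.74 without replicate number 1 (adjusted p = 0.0297), and the others were not called. In HRA cells, HIST1H2AC was at 0.036 in edgeR and 0.0067 in DESeq2 and between −0.40 and 0.35 with libraries left out. In HRD against parental cells, HIST1H4E was at −0.035 and −0.036 in these tools and H1FX at 0.11 and 0.12. With libraries left out, the log2 fold change in HRA cells ran from −0.43 to 0.013 for HIST1H2BJ, from −0.039 to 0.68 for HIST1H4E, from −0.42 to 0.27 for HIST2H2BF and from −0.016 to 0.13 for SLBP. In HRD against parental cells it ran from −0.015 to 0.48 for HIST1H2BO, from −0.51 to 0.57 for HIST1H4E, from −0.037 to 0.30 for HIST1H4H and from −0.094 to 0.63 for HIST3H2A. There it also ran from −0.46 to 0.74 for H1FX, from −0.33 to 0.33 for H2AFX, from −0.072 to 0.083 for H2AFZ and from −0.22 to 0.0998 for H3F3A. HIST1H4E ran from −0.73 to 0.11 in HRD against HRA cells. Depth limits the 34 histone genes not tested, whose values did not exceed 22.5 in any library.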
